A study of Mus musculus with 2 samples.

Results

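The genes described are the 6 that encode the main histone H3 lysine 4 (H3K4) methyltransferases of the mouse, namely Kmt2a, Kmt2b, Kmt2c, Kmt2d, Setd1a and Setd1b. They were chosen by symbol, and all 6 were found among 21460 protein-coding genes. The mark H3K4me1, a single methyl group on this lysine, was located with an antibody against it, by sequencing the DNA that came down with the histone (ChIP-seq). The cells were E14TG2a.4, embryonic stem cells of strain 129/Ola, labelled male and 3.5 day embryonic. The only group holds 2 biological replicates of these cells, with no treatment labelled, so genes and positions are compared, not conditions, and the spread is that between these 2 libraries. Each replicate is described by the authors' list of peaks on the mm10 genome, and a list of peaks that they kept as replicated is given beside them. Peak lists show where the mark was called, not how much RNA or protein the genes made.

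H3K4 methyltransferases of this family carry a catalytic SET domain and work in complexes around a shared core of WDR5, RBBP5, ASH2L and DPY30. KMT2C and KMT2D are known for placing H3K4me1 at enhancers, KMT2A and KMT2B for trimethylation at CpG-rich promoters of developmental genes, and SETD1A and SETD1B for much of the promoter trimethylation of other genes. In many cells H3K4me1 lies at enhancers and on the shoulders of active promoters, while the nucleosomes next to the transcription start site (TSS) carry trimethylation instead. The genes described thus encode enzymes that methylate the residue whose mark was mapped over them.

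The 300 bases around the RefSeq start are shown for the 4 genes that the promoter table used here holds, because they lie within the unmarked stretches described next. They run from 250 bases before to 50 after the start on GRCm38.p6 (mm10), are credited to RefSeq, and have each CG dinucleotide in capitals. The Kmt2a promoter is the minus strand of chr9:44881240-44881539, and that of Kmt2c the minus strand of chr5:25498734-25499033. The Kmt2d promoter is the minus strand of chr15:98871156-98871455, and that of Setd1a the plus strand of chr7:127777139-127777438.
Kmt2a: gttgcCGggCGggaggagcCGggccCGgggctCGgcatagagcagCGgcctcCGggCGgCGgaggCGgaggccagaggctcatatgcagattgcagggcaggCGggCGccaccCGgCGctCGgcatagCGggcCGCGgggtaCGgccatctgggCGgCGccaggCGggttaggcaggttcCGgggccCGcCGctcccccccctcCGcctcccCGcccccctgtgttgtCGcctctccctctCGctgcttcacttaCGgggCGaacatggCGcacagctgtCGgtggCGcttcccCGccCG
Kmt2c: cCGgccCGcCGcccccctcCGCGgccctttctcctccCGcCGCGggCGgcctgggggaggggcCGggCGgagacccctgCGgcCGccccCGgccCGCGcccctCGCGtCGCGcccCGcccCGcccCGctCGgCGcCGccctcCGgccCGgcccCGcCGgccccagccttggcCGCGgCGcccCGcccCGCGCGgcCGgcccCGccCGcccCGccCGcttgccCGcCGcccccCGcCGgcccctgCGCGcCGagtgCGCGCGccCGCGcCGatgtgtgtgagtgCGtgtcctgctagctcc
Kmt2d: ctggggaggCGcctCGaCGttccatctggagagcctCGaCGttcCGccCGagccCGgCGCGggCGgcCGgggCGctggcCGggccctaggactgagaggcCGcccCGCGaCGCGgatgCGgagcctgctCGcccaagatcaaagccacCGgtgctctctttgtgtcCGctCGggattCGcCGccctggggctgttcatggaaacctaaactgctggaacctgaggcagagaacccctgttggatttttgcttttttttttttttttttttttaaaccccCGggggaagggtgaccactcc
Setd1a: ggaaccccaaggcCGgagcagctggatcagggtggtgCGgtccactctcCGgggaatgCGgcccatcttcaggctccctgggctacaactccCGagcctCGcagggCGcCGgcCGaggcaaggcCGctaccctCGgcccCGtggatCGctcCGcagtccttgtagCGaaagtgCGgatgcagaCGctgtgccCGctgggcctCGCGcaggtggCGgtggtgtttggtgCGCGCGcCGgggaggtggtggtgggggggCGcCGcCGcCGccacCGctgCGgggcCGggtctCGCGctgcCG
CG dinucleotides, which read the same on both strands, numbered 36 in the Kmt2a, 56 in the Kmt2c, 27 in the Kmt2d and 35 in the Setd1a promoter, against a median of 13 over the promoters of 17492 genes. The Kmt2c promoter held more of them than 99.8% of those promoters, and the Kmt2d promoter, the poorest of the 4, more than 79.8%. None of the 4 held a covered base in replicate 1 or in replicate 2. The peak nearest to the RefSeq start of Kmt2d began 146 bp downstream of it in replicate 1 and 145 bp in replicate 2. At the genes without a printed promoter, upstream peaks ended 77 bp and 89 bp before the record start of Setd1b in replicates 1 and 2. Those of Kmt2b ended 244 bp and 712 bp before its record start. Of all 17492 promoters, 62.4% held no covered base in replicate 1 and 70.2% none in replicate 2, so such a promoter is common. Over the 500 bp to either side of mm9 start sites, all 6 genes were in the CpG-richest tertile by the ratio of observed to expected CpG. Their ratios ran from 0.783 at Setd1b to 0.905 at Kmt2c, and the GC content from 55.8% at Setd1a to 77.2% at Kmt2c. These starts are the 5' ends of GENCODE records and may differ from the mm10 starts used for coverage. The printed Setd1a promoter had a GC content of 73.7%.

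H3K4me1 peaks took up more of the surroundings of all 6 genes than of the median gene, but the 6 differed widely. Coverage here means the share of bases within 20 kb of the TSS, upstream and downstream, that lay in peaks, with the 5' end of the gene record as TSS. Setd1b (chromosome 5, 123142040 to 123168630, plus strand), a SETD1 enzyme, had 68.8% in replicate 1 and 64.6% in replicate 2. Kmt2b (chromosome 7, 30568855 to 30589056, minus strand), a promoter trimethylase, had 61.6% and 60.4%. Kmt2d (chromosome 15, 98831669 to 98874077, minus strand), an enhancer monomethylase, had 51.3% and 49.8%. These were the 3 highest in both replicates, and their replicate values lay within a few percentage points of each other.
Setd1a (chromosome 7, 127777389 to 127800122, plus strand), the paralog of Setd1b, had 41.0% in replicate 1 and 42.7% in replicate 2. Kmt2a (chromosome 9, 44803355 to 44881352, minus strand), the paralog of Kmt2b, had 27.1% and 30.2%. Kmt2c (chromosome 5, 25271795 to 25498855, minus strand), the paralog of Kmt2d, had 22.5% and 29.1%. The replicate ranges of Kmt2a and Kmt2c overlapped, whereas those of all other neighbours in this order did not.
The median of the 6 genes was 46.2% ± 0.08 (SD of the replicate medians, n = 2), against 13.9% for all genes. Single genes varied more between replicates than this median, with SDs from 0.80 at Kmt2b to 4.70 at Kmt2c. All 6 lay above that median, as 50% of all genes do by definition, and 2 of the 6, Setd1b and Kmt2b, lay above the 90th percentile, as 10% of all genes do. Setd1b stood at percentile 97.4 of all genes, Kmt2b at 95.3, Kmt2d at 89.9, Setd1a at 83.2, Kmt2a at 70.3 and Kmt2c at 67.0. Genes of the CpG-richest tertile had a median of 22.7%. Within that tertile Setd1b stood at percentile 96.6 and Kmt2c at 55.4, so the low end of the 6 was close to the middle of genes with like promoters.

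In each pair of paralogs 1 gene was more covered than the other within 20 kb of the TSS, by more than the replicates differed. Kmt2a minus Kmt2b was -34.47 percentage points in replicate 1 and -30.23 in replicate 2. Kmt2c minus Kmt2d was -28.8 in replicate 1 and -20.7 in replicate 2. Setd1a minus Setd1b was -27.8 in replicate 1 and -21.9 in replicate 2. Each record is longer than 20 kb, so the downstream side of every window lay within its own gene. On that side alone Kmt2a was the more covered of its pair, with 42.9% and 50.5% against 37.8% and 38.2% at Kmt2b. Its lower value over the whole window thus came from the upstream side. The other pairs kept their order downstream in both replicates. The difference between the SETD1 genes was not kept in a wider window. Within 50 kb Setd1a had 44.6% in replicate 1 and 42.7% in replicate 2, against 48.4% and 41.1% at Setd1b, so their ranges overlapped and replicate 2 had the reverse order. Within 5 kb Setd1a had 44.6% ± 0.50, against 52.8% ± 0.99 at Setd1b (SD, n = 2). The other pairs kept their order in both replicates at 5 kb and at 50 kb. Over the whole records the same gene of each pair was lower, with mean differences of -14.4, -51.9 and -52.6 percentage points in this order. These records differ in length, with 77998 bp at Kmt2a and 20202 bp at Kmt2b.

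**Figure D1:**
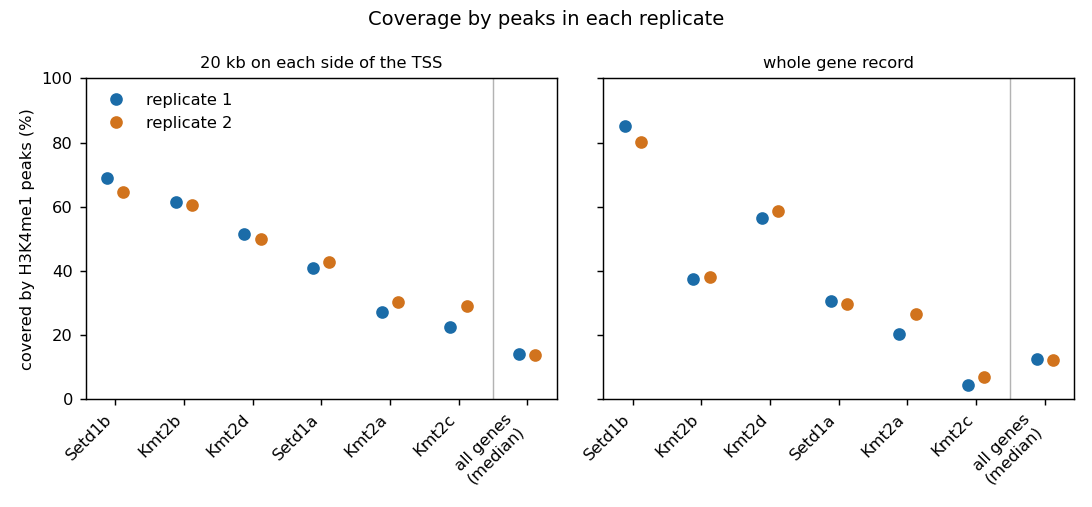
H3K4me1 peak coverage in percent of the bases within 20 kb of the TSS (left) and of the whole gene record (right), with a point for each replicate and the median over all genes at the far right of each panel. Setd1b is highest in both panels, and Kmt2c is the only gene of the 6 below the median of all genes in the right panel.

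The TSS of every member lay in an unmarked stretch with peaks on either side. All 6 had a replicated peak within 2 kb of the TSS, as had 72.8% of all genes and 97.2% of the CpG-richest tertile. In 5 of the 6 the TSS base was in no peak and both replicates listed a peak within 2 kb on both flanks, as at 41% of all genes and 73.5% of the CpG-richest tertile. Counts so near the shares of genes with CpG-rich promoters are no result about the 6 genes.
Unmarked stretches at the 5 starts that met this rule on flanks were longer, in both replicates, than the median of all genes that met it. The stretch at Kmt2c was 2612 bp long in replicate 1, with edges 1428 bp upstream and 1185 bp downstream, and 2482 bp long in replicate 2. That at Kmt2a was 1254 bp in replicate 1, which listed a peak ending 641 bp upstream, but 2380 bp in replicate 2, which had none nearer than 1573 bp. Kmt2b had 1199 bp and 1699 bp, and Setd1a had 1487 bp and 2123 bp, so both were longer in replicate 2. Setd1b had 1243 bp and 1298 bp, the smallest difference between replicates among these 5 genes. Over the 8788 genes with a TSS between flanking peaks, the median was 964 bp in replicate 1 and 1156.5 bp in replicate 2, while those in the CpG-richest tertile had medians of 1119 bp and 1316 bp. Of the 5 genes, only Setd1b fell below the median of that tertile, in replicate 2. Only 0.933% of the 8788 genes had a wider stretch than Kmt2c in replicate 1 and 2.67% in replicate 2, whereas 30.8% and 40.04% had a wider one than Setd1b.

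The start of Setd1b is placed to one side of its stretch. The nearest upstream peak ended only 77 bp from the TSS in replicate 1 and 89 bp in replicate 2. The downstream peak began at 1167 bp and 1210 bp. In the other 5 genes the nearest downstream peak began between 523 bp and 1185 bp from the TSS in either replicate.
Kmt2d was the exception to the rule on flanks. Its record starts 2872 bp upstream of the RefSeq start whose sequence is shown above, and the stretch around the record's 5' end was 2751 bp long in replicate 1 and 2764 bp long in replicate 2, with the upstream peak 2202 bp and 2183 bp away. A pair of peaks followed downstream, at 550 bp to 808 bp and 990 bp to 1431 bp in replicate 1. These had ranks 210030 and 125943 of 313453, and both had counterparts in replicate 2. Then came a second unmarked stretch around the RefSeq start, of 1586 bp in replicate 1 and 1508 bp in replicate 2. With RefSeq starts in place of record ends for the 4 genes that have one, a choice made after the values were seen, all 6 genes met the rule. No share of all genes was computed with such starts, so this count cannot be set beside those given above.

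**Figure D2:**
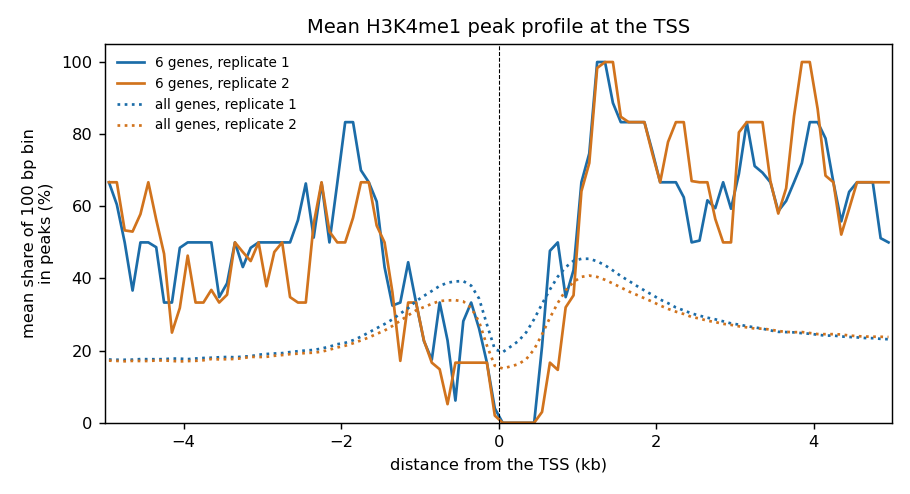
Mean share of each 100 bp bin that lay in peaks, from 5 kb upstream to 5 kb downstream of the TSS, for the 6 genes (solid lines) and all genes (dotted lines) in each replicate. The 6 genes drop to 0% just downstream of the TSS and reach 100% of a bin near 1.3 kb, where the lines for all genes peak below 50%.

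Averaged over the 6 genes, 2% of the 100 bp bins on either side of the TSS was covered in replicate 1 and 1% in replicate 2, against 20.0% and 15.4% over all genes. Downstream, every one of the 6 genes was covered throughout the bin ending at 1300 bp in replicate 1 and that ending at 1400 bp in replicate 2. The highest bin over all genes ended at 1200 bp in both replicates, with 45.5% and 40.8%. The mark was thus listed over a common place on the gene side of the start in all 6 genes and both replicates, and no upstream bin was covered throughout in all 6.

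**Figure D3:**
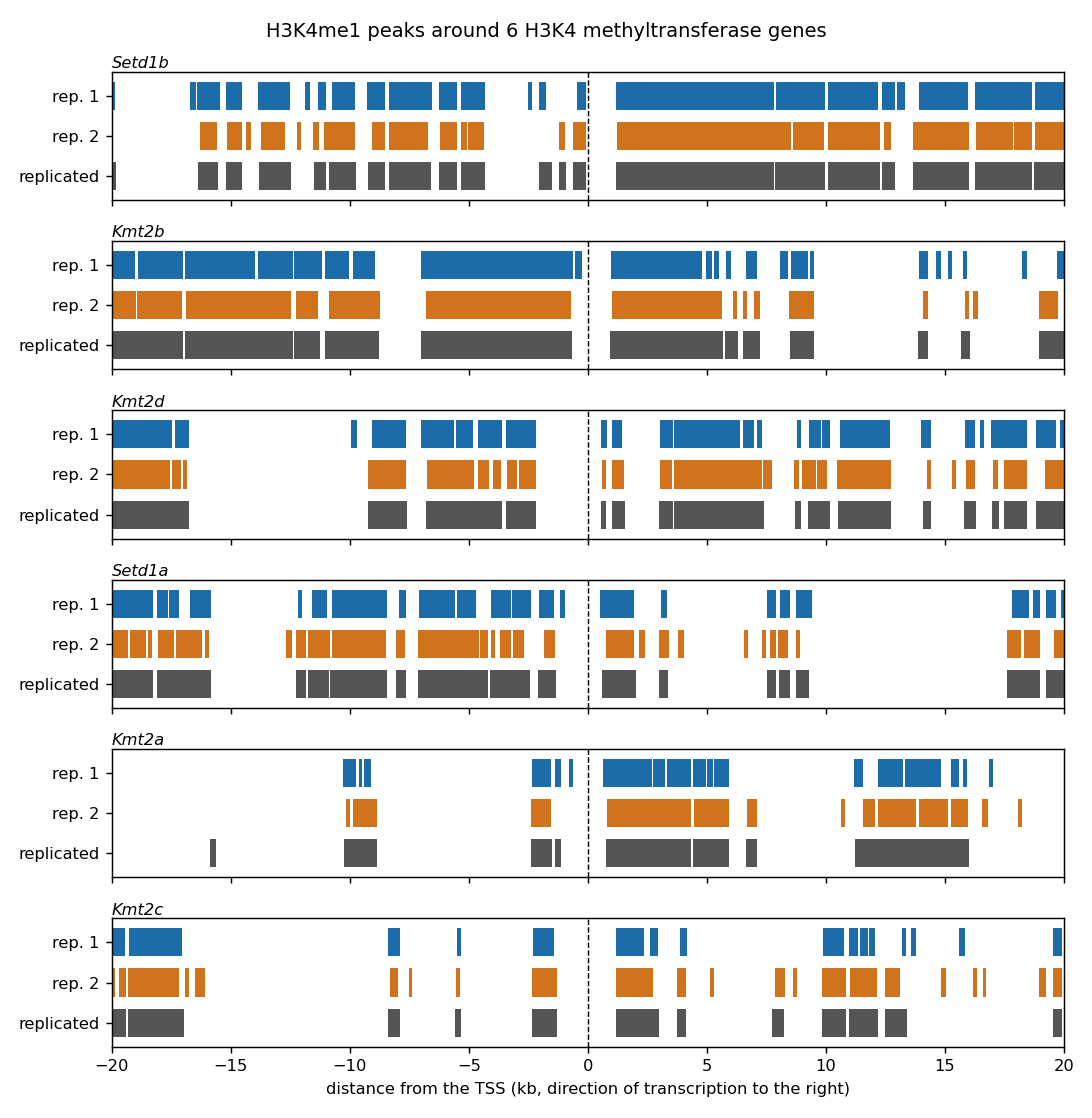
H3K4me1 peaks from 20 kb upstream to 20 kb downstream of the TSS of each gene (dashed line), with a row for each replicate and for the replicated list, genes in order of coverage. Each TSS lies in a gap, and the peaks of Setd1b and Kmt2b are the most extensive, on the downstream side for Setd1b and on the upstream side for Kmt2b.

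Kmt2a and Kmt2b, the genes of the trimethylases with a CXXC domain, were both marked downstream but differed in which side of the TSS was more covered. Downstream of the TSS, Kmt2a had 42.9% of 20 kb covered in replicate 1 and 50.5% in replicate 2, against 11.4% and 9.94% upstream. Its strongest peak in both replicates, by the authors' signal value, was the one at the start of the gene, from 614 bp to 2669 bp downstream in replicate 1 and from 808 bp to 4312 bp in replicate 2. In the replicated list this peak was 3588 bp wide (signal value 8.73, rank 11787 of 226060). No other protein-coding record lay in the Kmt2a window, but the long non-coding record Gm39326 spans its TSS, and 43.6% of that record lay in replicated peaks.
At Kmt2b the order was the reverse, with 37.8% and 38.2% downstream and 85.4% and 82.6% upstream. Its widest peak lay upstream, from 7004 bp to 624 bp before the TSS in replicate 1 and from 6796 bp to 712 bp in replicate 2. That peak lay over the 3' part of Zbtb32, a zinc finger gene on the same strand whose own TSS is 13763 bp upstream, so they run in tandem. Of the covered bases in the Kmt2b window, 67.5% in replicate 1 and 67.2% in replicate 2 lay in records of other protein-coding genes, Zbtb32 and the uroplakin gene Upk1a. The strongest peak, with rank 1838 of 313453 in replicate 1 and 1175 of 325226 in replicate 2, began 16928 bp and 16897 bp upstream, near the start of Zbtb32. Within 5 kb on each side of the TSS, where Kmt2b had 84.3% ± 1.89 (SD, n = 2), it stood above Setd1b (52.8% ± 0.99) and at percentile 99.1 of all genes.

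Kmt2c and Kmt2d, the genes of the enhancer monomethylases, differed most of the 3 pairs in the rank of their strongest peak. The strongest peak in the Kmt2c window had rank 64742 of 313453 in replicate 1 and 36962 of 325226 in replicate 2, and these were different peaks, 1185 bp and 11022 bp downstream of the TSS. When only the 50000 strongest peaks of each list were kept, coverage of Kmt2c came to 1.42%, against a median of 2.53% over all genes, and it was the only gene of the 6 below that median. Its widest peak in both replicates, 2238 bp and 2155 bp long, lay upstream and spanned the start of the chaperonin-like gene Cct8l1, 17212 bp away on the opposite strand.
Kmt2d had its strongest peak downstream, beginning 3631 bp from the TSS in replicate 1 and 3610 bp in replicate 2, with ranks 4168 of 313453 and 3254 of 325226. It lay past the RefSeq start too. Downstream coverage was 56.9% and 57.3%, and upstream coverage 45.7% and 42.4%. Upstream of Kmt2d lie Rhebl1, a small GTPase gene whose start is 7420 bp away, and the hedgehog ligand gene Dhh, both on the same strand. Other genes held 38.1% of the covered bases in replicate 1 and 36.7% in replicate 2.

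Setd1a and Setd1b, the genes of the SETD1 enzymes, differed in where the mark lay. At Setd1a the gene side had 23.5% in replicate 1 and 24.8% in replicate 2, and the upstream side 58.5% and 60.6%. The upstream peaks fell mainly on Orai3, a calcium channel gene that starts 7574 bp upstream, and on the F-box gene Fbxl19. Records of other protein-coding genes held 64.6% of the covered bases in replicate 1 and 66.9% in replicate 2. A peak at the far edge of the window, 10747 bp wide in the replicated list, lay within Fbxl19 and was the strongest in replicate 1 (rank 765 of 313453). Its summit and most of its length lay more than 20 kb upstream of the TSS in both replicates. Of the peaks with a summit inside the window, the strongest in replicate 1 ran from 10752 bp to 8445 bp upstream (rank 1515). In replicate 2 the edge peak had rank 9587 of 325226, after the peak at the start of Setd1a itself, 754 bp to 1947 bp downstream (rank 8632). The peak just downstream of the Setd1a start ran from 574 bp to 2016 bp in the replicated list, with rank 3683 of 226060.
The strongest peak around Setd1b lay inside the gene in both replicates, beginning 13914 bp downstream in replicate 1 (rank 916 of 313453) and 16304 bp downstream in replicate 2 (rank 215 of 325226). Here 87.2% of the 20 kb downstream was covered in replicate 1 and 84.8% in replicate 2, and 50.4% and 44.5% of the 20 kb upstream. Other protein-coding records held 36.0% of the covered bases of its window in replicate 1 and 33.8% in replicate 2. With gaps of no more than 1 kb closed, 7 replicated peaks formed a domain of 20734 bp, from 1164 bp to 21897 bp after the TSS (chromosome 5, 123143204 to 123163937), all of it within the Setd1b record. It had rank 913 of 110533 domains by width. Kmt2d touched the next widest domain of the 6, of 17699 bp, 70.7% of it in the record and the rest beyond its 3' end. The domains at Setd1a (9641 bp), Kmt2a (6350 bp), Kmt2b (6298 bp) and Kmt2c (4807 bp) were narrower. The widths depend on the gap closed, and with 3 kb the Kmt2b domain reached 48083 bp, against 51005 bp at Setd1b.
Over the 6 genes, coverage was higher downstream than upstream in 4 and the reverse in Kmt2b and Setd1a, while 51.3% of all genes had more downstream.

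Along whole gene records, the mark ran through Setd1b and lay mostly at the ends of Kmt2c. Peaks covered 85.1% of the Setd1b record in replicate 1 and 80.3% in replicate 2, and 56.3% and 58.6% of the Kmt2d record. Kmt2b had 37.7% ± 0.41 (SD, n = 2), Setd1a 30.6% and 29.6%, and Kmt2a 20.1% and 26.6%. Kmt2c had 4.44% and 6.74%, below the median of all genes (12.4% and 12.2%), and no replicate ranges overlapped between neighbours in this order.
Each record was divided into 10 segments of equal length, numbered along the gene. Setd1b was covered by 55.3% ± 1.14 in segment 1 and by between 82.1% and 100% on average in each of segments 2 to 8. It then had 39.4% ± 11.2 in segment 9 and 95.5% ± 6.30 in segment 10 (SD, n = 2 throughout). Kmt2c had 25.6% ± 7.33 in segment 1, 10.4% ± 4.53 in segment 2 and 17.5% ± 4.00 in segment 10. In none of the 7 segments between did its coverage exceed 1.12% in either replicate. Kmt2c is also the longest of the 6, with a record of 227061 bp, and 207061 bp of it lay more than 20 kb from the TSS.
Kmt2a was covered by 66.5% ± 4.29 in segment 1 and again by 39.5% ± 16.4 in segment 4 and 41.5% ± 5.96 in segment 5, and by 10.3% or less on average in each later one. Setd1a was marked at both ends, with 60.8% ± 2.96 in segment 1 and 75.1% ± 12.3 in segment 10. It also had 47.1% ± 5.07 in segment 4, and 0% in segments 6 and 7 in both replicates. Kmt2d had 88.5% ± 4.57 in segment 10. Over the 9878 genes with a record of at least 20 kb, mean coverage was 30.2% in segment 1 and 16.2% in segment 10 in replicate 1, and 28.5% and 16.6% in replicate 2.

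**Figure D4:**
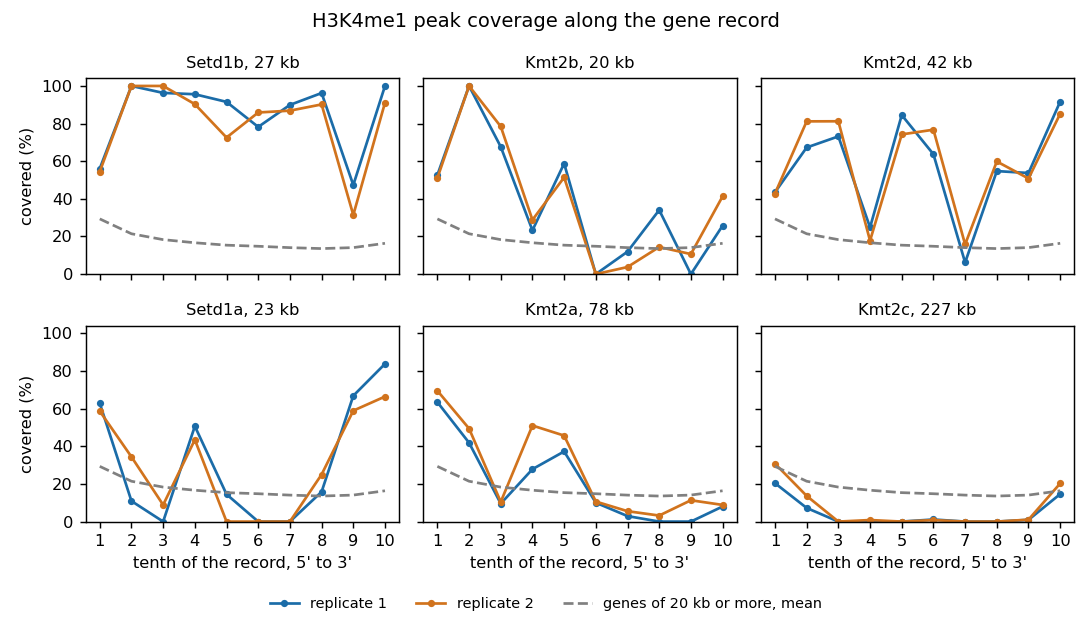
Percent of each of 10 equal segments of the gene record, numbered 5' to 3', that lay in peaks of replicate 1 and replicate 2, with the mean over genes of at least 20 kb as a dashed line. Setd1b is high in all segments but 9, Kmt2c is near 0% in segments 3 to 9, and Kmt2d and Setd1a are high in segment 10.

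Exons and introns were set apart on mm9, the build of the exon annotation used, with the broad peaks that the authors deposited for that build. Exons of Setd1b were covered by 97.1% in replicate 1 and 83.3% in replicate 2, and its introns by 96.6% and 90.4%. In Setd1a, exons had 77.5% and 69.2% and introns 47.9% and 38.04%, the largest gap between exons and introns among the 6 genes in both replicates. Kmt2b also had more in exons (79.7% and 63.7%) than in introns (61.1% and 52.7%). In the other 4 genes, whether exons or introns were higher differed between the replicates. Long introns make up most of Kmt2c, with 206694 bp of introns and 20296 bp of exons.

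Agreement between the replicates was lowest where the mark was sparse. Of the bases in a peak of either replicate within the window, both covered 58.5% at Kmt2c, 66.6% at Kmt2a and 66.7% at Setd1a. At Kmt2d both covered 78.6%, at Kmt2b 79.3% and at Setd1b 82.5%. In the Kmt2c window 11 of 22 peaks of replicate 2 overlapped a peak of replicate 1, and 13 of 16 the other way round. Over whole lists, 79.4% of the 325226 peaks of replicate 2 and 82.8% of the 313453 of replicate 1 did so. The coverage of Kmt2c also differed most between replicates of the 6 (SD 4.70).

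Other genes of the same enzymatic system had lower median coverage. The shared core subunit genes had a median of 39.8%, all 4 above the median of all genes. Rbbp5, a scaffold subunit, was highest with 47.4% ± 1.91 and Ash2l, an activating subunit, lowest with 20.1% ± 0.29. Dpy30, with 33.6% ± 0.77, had no replicated peak within 2 kb of the TSS used, and the other 3 had one (SD, n = 2 for each gene).
Of the 10 genes for subunits of single complexes, all had a replicated peak within 2 kb and 7 lay above the median of all genes, and their median was 23.2%. Pagr1a, a partner of KMT2C and KMT2D, had 73.4% ± 1.30, and Bod1l, a partner of the SETD1 enzymes, had 6.76% ± 0.87. The H3K4 demethylase genes had a median of 14.6%, with 3 of 6 above the median of all genes. They ran from 73.9% ± 0.92 at Kdm5b to 0% in both replicates at Kdm5d, which is on chromosome Y and had no replicated peak within 2 kb.
Among 5 other SET domain genes that have been linked to H3K4, the median was 25.1%, with 4 above the median of all genes, and the values ran from 47.6% ± 1.36 at Smyd2 to 8.42% ± 0.20 at the meiotic gene Prdm9. Methyltransferases of other histone lysines had a median of 27.9% over 17 genes, with a replicated peak within 2 kb at all of them and 12 above the median of all genes. Ehmt2, an H3K9 methyltransferase gene, had 65.5% ± 1.93 and Setdb2 had 3.88% ± 0.97. The median of the 6 genes was the highest of these lists, but the lists overlap in range and were not tested against each other.

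**Figure D5:**
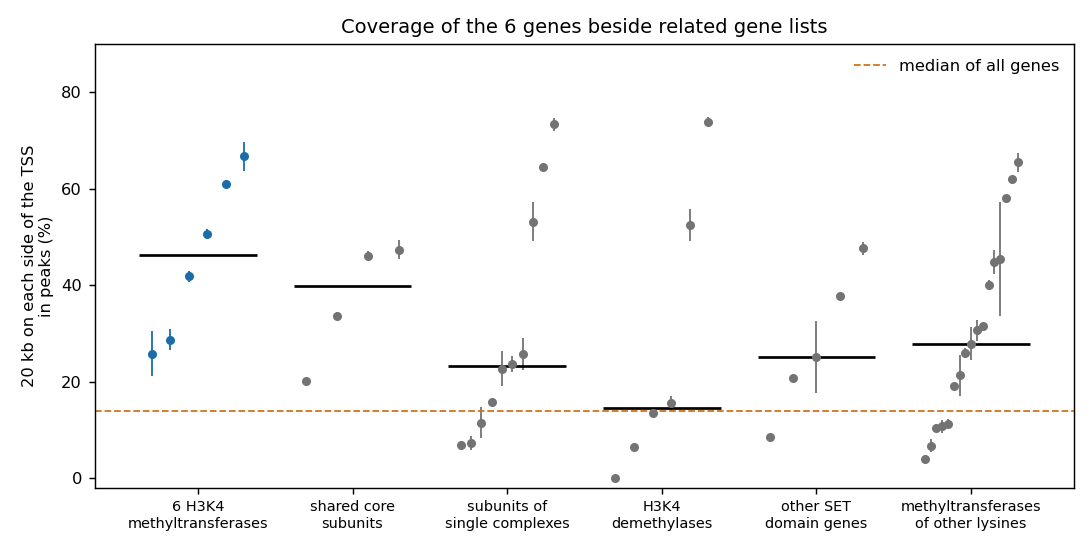
Mean coverage within 20 kb of the TSS for each gene of 6 lists, with bars for the SD over the 2 replicates, black lines for list medians and a dashed line for the median of all genes. The 6 H3K4 methyltransferase genes lie between 25.8% and 66.7%, all above the dashed line, and the other lists except the core subunits reach below it.

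The coverage profile around each TSS was compared with that of all other genes over 40 bins of 1 kb, in the direction of transcription, by the mean absolute difference in coverage. Profiles were not scaled, so this measure depends on the level of coverage as well as on its shape. Closest to Kmt2a was Nelfa, with 12.5 percentage points per bin, and then Adgrf5 with 13.3, against a median of 29.5 over all genes compared. Closest to Kmt2b were Mrps34 (17.5) and Ints3 (18.7), and to Kmt2c Sema7a (14.4) and Spg7 (15.7). Closest to Kmt2d were Maf1 (23.1) and 1810013L24Rik (24.2), to Setd1a Trpt1 (18.8) and Zcwpw1 (21.4), and to Setd1b Gm128 (18.9) and Cbx7 (19.2). No paralog was among these. The rank of a paralog depended on which gene of the pair was the base. So did the median difference over all genes compared, which ran from 28.2 with Kmt2c as base to 59.9 with Setd1b. By likeness to Kmt2a, Kmt2b ranked 20611 of 21458 genes, and by likeness to Kmt2b, Kmt2a ranked 7139 of 21450. By likeness to Kmt2c, Kmt2d ranked 16421 of 21458, and by likeness to Kmt2d, Kmt2c ranked 805 of 21457. By likeness to Setd1a, Setd1b ranked 21156 of 21456, and by likeness to Setd1b, Setd1a ranked 8979 of 21458. With bins of 500 bp, 7 of the 12 genes were named again.

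The sequencing depth of the libraries is unknown, since peak lists carry no read counts, and no control library was analysed here. Coverage at embryonic stem cell markers ran from 8.08% at Esrrb to 67.4% at Pou5f1, with a median of 41.9% and a replicated peak within 2 kb of the TSS at all 6. The 7 markers of feeder fibroblasts had a median of 21.4%, and 4 of them lay above the median of all genes. They ran from 0% in both replicates at Col3a1 and Dcn to 39.8% at Pdgfrb. Of the 7, 5 had a replicated peak within 2 kb, as had 72.8% of all genes. Whether any feeder cells contributed to the values of the 6 genes was not tested.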

How the data were processed

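H3K4me1 ChIP-seq was analysed in 2 biological replicates of E14TG2a.4 cells, from the authors' peak lists. As the authors' deposited read-me files record, the mm10 lists of each replicate, of both pooled and of replicated peaks derived from alignments, and the replicated list from the replicate and pooled lists. The records of the replicate 2 and pooled lists also name 1 file that the replicate 1 record does not, with no stated role. For the aligner, peak caller and filters, names were not given in the sources used here. The deposited mm10 columns used are the authors' signal value per peak, whose normalization is not stated, the −log10 q value (a −log10 p stands beside it) and the summit position. The deposited mm9 broad peak lists carry p-value and q-value columns with the authors' signal, and only their intervals were used. Read counts are in none of the lists, which leaves the depth unknown, and counting intervals are not given.

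Gene records were those of RefSeq GRCm38.p6. Strand came from the RefSeq promoter table for 17492 genes and from GENCODE vM1 for 3586 by symbol and 382 by synonym. Another 427 of 21887 protein-coding genes had none and were left out. The sources differed for 47 of 16219 genes with both. On mm9, 20187 GENCODE genes were used, and no coordinates were converted between builds.

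Coverage was computed per replicate and averaged, with SD over the replicates, in Python 3.11.15 with numpy 2.4.6, pandas 2.3.3 and matplotlib 3.10.9. Peaks were shared at an overlap of 1 bp or more. No test was run, since the only group has 2 samples. All 6 genes and all genes of each list are described, and the 2 genes of most similar profile were named for each of the 6 by the mean absolute difference. Alternatives changed the window, the peak list and its threshold, the build (with its broad peaks and GENCODE records), the flank distance, the start site and the replicate left out. The interval functions were checked on simulated intervals. The members and gene lists were chosen with earlier results of these data known.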

Additional observations from a re-analysis of the deposited data

How the results depend on the processing

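The median coverage of the 6 genes around the TSS was 46.2%. It was 50.005% with 5 kb to either side, 53.7% with 10 kb, 44.2% with 50 kb, 45.6% with −log10 q of at least 2, 20.0% with the 50000 strongest peaks, 50.1% in the replicated list, 53.8% in the pooled list and 68.3% on mm9. The medians of all genes in this order were 21.2%, 16.3%, 12.8%, 13.6%, 2.53%, 15.7%, 17.5% and 24.5%, and the 6-gene median stayed above each. For whole records the median of 33.9% became 14.03% with the 50000 strongest peaks, 38.9% in the replicated list, 43.4% in the pooled list and 57.9% on mm9. The mm9 setting used the broad peaks of that build and GENCODE gene records, so it changed more than the build. Leaving out either replicate gave 46.1% to 46.3% around the TSS and 33.8% to 34.0% over records. With flanking peaks required within 1 kb, only 1 of the 6 starts lay between peaks, as did 28.4% of all genes. Within 5 kb all 6 did, as did 45.2% of all genes. The order of the 6 genes was the same in 8 of 10 settings. With 5 kb it ran Kmt2b, Setd1b, Kmt2a, Kmt2d, Setd1a, Kmt2c, and with 50 kb it ran Kmt2b, Kmt2d, Setd1b, Setd1a, Kmt2c, Kmt2a, so Setd1b was not the highest in either. The cause of these differences was not tested. No paired analysis was possible because there is only 1 group. Unknown depth, unstated peak calling and only 2 libraries limit every value.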

Other observations

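Coverage past the 3' ends of the 6 genes also differed between them. Over the 10 kb beyond the end, peaks covered 61.0% at Kmt2d in replicate 1 and 71.7% in replicate 2, where the AMP kinase subunit gene Prkag1 lies. At Kmt2b they covered 64.2% and 59.4%, and at Setd1b 55.6% and 35.6%, a wide spread between replicates. Setd1a had 38.4% and 35.9%, Kmt2a 22.3% and 18.3%, and Kmt2c 6.93% and 14%. Kmt2c was thus low there as in most of its record, and Kmt2d was high there as in the last segment of its record.

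Non-coding records near the starts were covered in part. The lncRNA record Gm32082, which overlaps the TSS of Kmt2b, had 61.6% in replicate 1 and 37.4% in replicate 2. Upstream of Kmt2c the lncRNA record 4831440E17Rik had 23.1% and 25.9%. The miRNA record Mir3569, upstream of Kmt2b, lay wholly in a narrow peak that replicate 1 listed and replicate 2 did not.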
